A study of Homo sapiens with 9 samples.

Results

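The Eph receptors and ephrins examined here are 10 genes, the receptors EPHA1, EPHA2, EPHA4, EPHB2, EPHB3, EPHB4 and EPHB6 and the ligands EFNA1, EFNB1 and EFNB2. They were chosen by name as one gene family, matched by symbol to the gene identifiers, and are 10 of the 22 genes of the Eph and ephrin family and 10 of 61544 genes with counts. The 10 were selected on no stated cutoff, but with levels and fold changes of the same libraries already known, the large difference of EPHB6 between WT and NLS Mut among them. The differences between groups are therefore given as a description. All 10 passed the filter on low counts, which left 18653 genes.

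RNA-Seq was performed on H1975, an epithelial line from a human lung adenocarcinoma. All cells first received si78, an siRNA that targets the 3′ end of the endogenous transcript of HSPA5, the gene of the endoplasmic reticulum chaperone GRP78. After 24 h the cells were given an expression plasmid for a further 48 h, so every group carries the knockdown. Vector cells received the empty plasmid pcDNA3, WT cells received FLAG-tagged GRP78, and NLS Mut cells received the same protein with alanine in place of 3 lysines of its nuclear localization signal. Each group had 3 libraries, whereas untreated cells were not analysed here. The study asked which genes depend on GRP78 that can enter the nucleus, which the comparison of WT with NLS Mut addresses.

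Eph receptors form the most numerous family of receptor tyrosine kinases and bind ephrins that are held on the membrane of a neighbouring cell. EphA receptors bind mostly ephrin-A ligands, which are anchored by a lipid, and EphB receptors bind mostly ephrin-B ligands, which span the membrane and can signal into their own cell. Contact between the proteins changes the cytoskeleton, adhesion and repulsion of cells, and in epithelial tumours the family is studied for its part in cell sorting, migration and invasion. EPHB6 differs from the other receptors among the 10 in that its kinase domain lacks catalytic activity.

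The study also examined ID2, a protein that keeps helix-loop-helix factors away from the E-box, a DNA motif of the letters CANNTG. The promoters of 4 members are shown for this motif, which reads the same on both strands. EPHB6 was chosen for the widest difference between groups, EPHB3 for carrying the same number of E-boxes, EPHB4 as the most abundant EphB receptor and EPHA2 as the most abundant EphA receptor. The sequences are those of RefSeq on GRCh38.p14, run 5′ to 3′ on the strand of the gene, cover 250 bases before and 50 bases after the start site, and carry each E-box in capitals.
EPHB6, plus strand, chr7:142862506-142862805: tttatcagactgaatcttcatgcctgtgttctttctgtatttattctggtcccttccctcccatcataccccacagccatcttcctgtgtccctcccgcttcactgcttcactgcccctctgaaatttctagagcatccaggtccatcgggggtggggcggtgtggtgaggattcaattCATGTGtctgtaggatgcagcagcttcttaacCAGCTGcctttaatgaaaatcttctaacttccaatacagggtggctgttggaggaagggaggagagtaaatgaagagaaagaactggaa
EPHB3, plus strand, chr3:184561535-184561834: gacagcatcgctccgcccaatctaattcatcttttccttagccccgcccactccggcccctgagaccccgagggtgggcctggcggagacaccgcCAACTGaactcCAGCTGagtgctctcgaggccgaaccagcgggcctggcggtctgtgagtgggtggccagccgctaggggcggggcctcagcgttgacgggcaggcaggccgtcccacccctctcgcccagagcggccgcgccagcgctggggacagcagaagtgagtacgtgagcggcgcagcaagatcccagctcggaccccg
EPHB4, minus strand, chr7:100827474-100827773: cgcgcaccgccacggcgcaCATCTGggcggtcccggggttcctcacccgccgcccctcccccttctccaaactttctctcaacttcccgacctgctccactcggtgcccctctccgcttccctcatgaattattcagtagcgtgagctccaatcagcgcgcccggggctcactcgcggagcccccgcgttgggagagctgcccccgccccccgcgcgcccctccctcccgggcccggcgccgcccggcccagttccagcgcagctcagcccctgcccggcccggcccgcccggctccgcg
EPHA2, minus strand, chr1:16156020-16156319: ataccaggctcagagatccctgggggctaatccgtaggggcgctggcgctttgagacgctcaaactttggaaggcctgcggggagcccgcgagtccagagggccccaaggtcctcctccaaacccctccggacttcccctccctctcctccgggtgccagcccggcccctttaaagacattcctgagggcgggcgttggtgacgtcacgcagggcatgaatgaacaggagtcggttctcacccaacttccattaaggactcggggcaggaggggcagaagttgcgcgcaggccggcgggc
In EPHB6 the 2 E-boxes start at positions -71 and -39 relative to the start site, with the letters CATGTG and CAGCTG. This RefSeq start lies inside the EPHB6 gene of GENCODE release 29, which begins further upstream. EPHB3 also had 2 E-boxes, at -155 and -144, EPHB4 had 1 at -231, and the EPHA2 window had 0. An E-box was present in at least 1 window of 7 of the 10 members (70.0%), with no match in EPHA2, EPHA4 and EFNB1. EPHA4 and EPHB2 each have more than 1 window, so this share counts genes, whereas the shares that follow count windows. The motif is also common elsewhere, since 68.7% of the 35116 promoter windows in the table and 62.4% of the 17350 windows of tested genes held it. The match of letters is a description and shows neither binding nor a cause.

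The libraries had 17671055 to 27476298 reads on genes. HSPA5, the transfected gene, was at 359 to 391 CPM (reads of a gene per 1000000 counted reads) in Vector. It was at 5031 to 6145 CPM in WT and 4765 to 5156 in NLS Mut. These ranges set Vector apart, but WT and NLS Mut overlapped. Counts per gene do not show the lysine changes, so HSPA5 could not check the labels WT and NLS Mut against each other. Of 10 epithelial and lung adenocarcinoma markers, CDH1, EPCAM, CLDN4 and the keratins were at 184.5 CPM or more in every library and the lung factor NKX2-1 at 21.4 to 31.6, whereas the lung genes NAPSA and SFTPB reached at most 3.28 and 1.06 CPM. The 9 markers of immune, endothelial and fibroblast cells together gave 12.5 to 19.1 CPM. The labels do not say whether the 3 libraries of a group came from separate cultures, so p-values measure the spread between these libraries, which may be technical.

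EPHB6 was the member that varied most between the groups. Its gene (ENSG00000106123.12) lies on the plus strand of chromosome 7 from 142855061 to 142871094 in GRCh38. The level, in CPM on library sizes scaled by TMM, was 3.14, 1.88 and 3.00 in the Vector libraries. WT libraries stood at 4.29, 4.47 and 3.42 CPM, and NLS Mut libraries at 1.47, 0.824 and 1.93 CPM. WT was thus above every library of the other groups, and the highest NLS Mut library lay just above the lowest Vector library. These levels rest on few reads, 52 to 81 in Vector, 71 to 116 in WT and 21 to 34 in NLS Mut.

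The group means of EPHB6 were 2.67 ± 0.690 CPM in Vector, 4.06 ± 0.560 in WT and 1.41 ± 0.555 in NLS Mut (SD, n = 3 each). WT exceeded NLS Mut 2.94-fold, with a 95% interval from 1.85 to 4.67, or 1.56 on the log2 scale (SE 0.33). Against Vector, WT was higher by 0.61 (SE 0.30) and NLS Mut was lower, at -0.95 (SE 0.33), both on the log2 scale. Vector thus lay between the other two, and neither of the comparisons with Vector passed the threshold of edgeR (adjusted p = 0.44 for WT and 0.20 for NLS Mut). How many cells took up a plasmid was not measured, so a change in every cell and a change in some of the cells cannot be told apart in these bulk libraries.

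**Figure D1:**
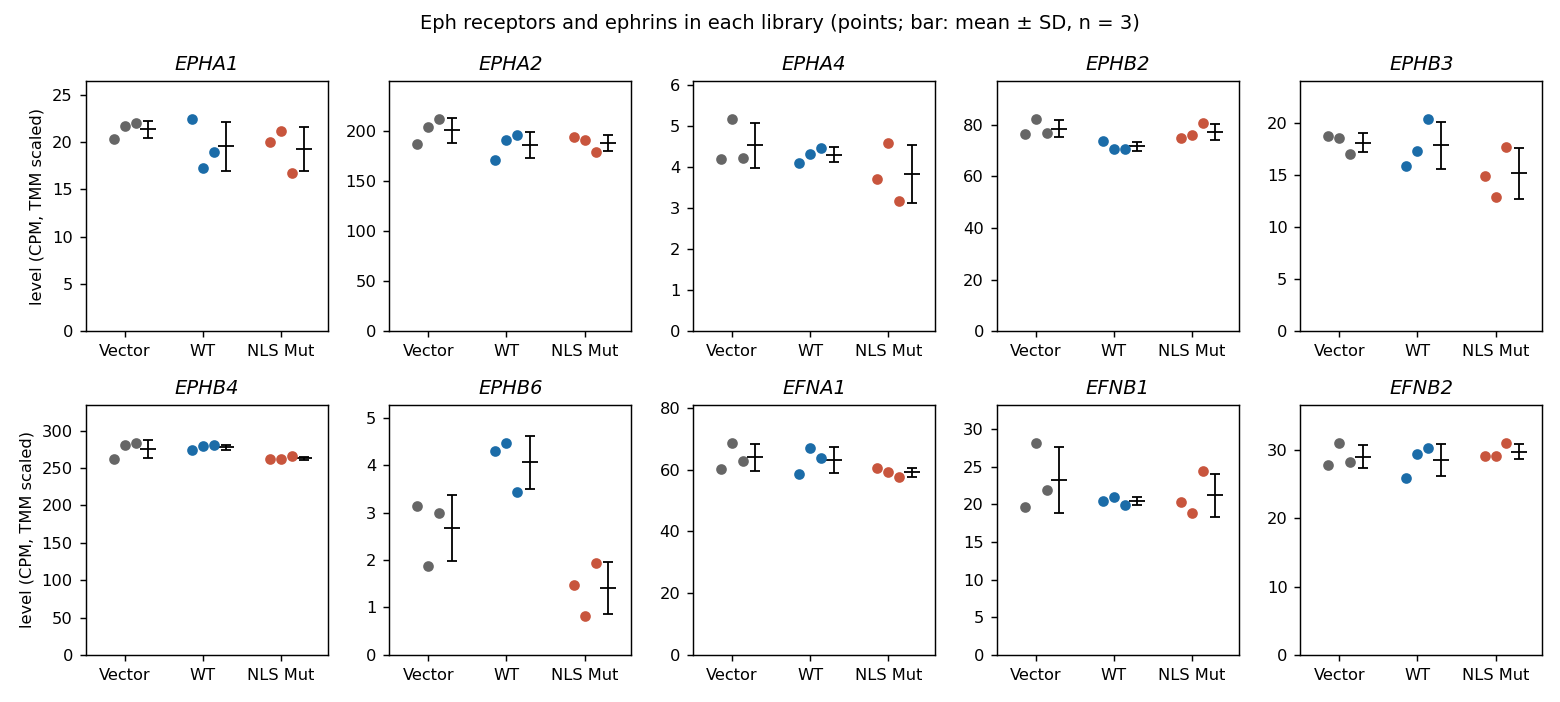
Level of each of the 10 genes in each library, in CPM scaled by TMM on a linear axis from 0, with Vector in grey, WT in blue and NLS Mut in red, and a bar for the mean ± SD of 3 libraries. EPHB6 runs from 0.824 to 4.47 CPM with all WT points above all NLS Mut points, whereas the points of the other genes are close together or overlap between groups.

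EPHB6 was a minor receptor in these cells in all groups. Summed over receptors, with each level divided by the exonic length in kb, it made up 0.466 ± 0.132% in Vector, 0.733 ± 0.116% in WT and 0.260 ± 0.106% in NLS Mut (SD, n = 3). The counts of the 2 strands summed to the unstranded count in every library, so no EPHB6 reads were dropped for a gene on the opposite strand, whereas an overlap on the same strand would not show in this sum. The strands were split 13 to 55 forward and 15 to 61 reverse in 8 libraries, but NLS Mut replicate 2 had 20 forward and 1 reverse read. Leaving out this library, which also had the lowest level, lowered the difference between WT and NLS Mut to 1.26 on the log2 scale, where it no longer passed the threshold, and leaving out NLS Mut replicate 3 raised it to 1.85. The part of the uneven strand split in this value was not tested. Over all 18 alternatives it stayed between these values.

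**Figure D2:**
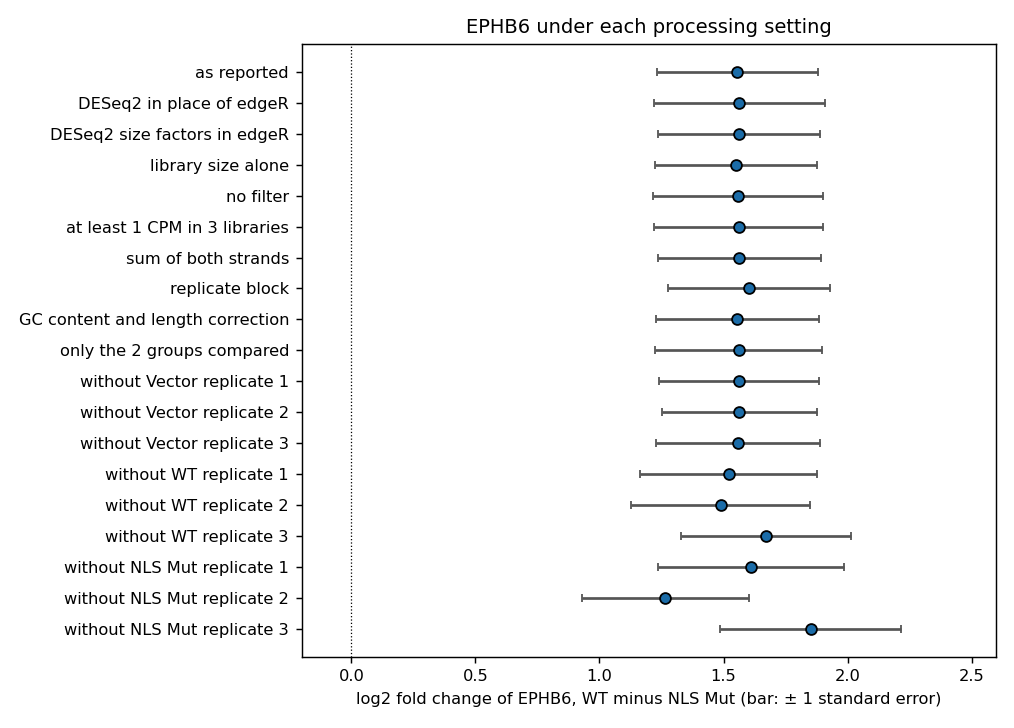
Fitted log2 fold change of EPHB6 for WT minus NLS Mut (horizontal axis), as reported and under 18 other settings (rows), with a bar of 1 standard error on each side. All points lie right of 0, between 1.26 and 1.85, and the lowest is the fit without NLS Mut replicate 2.

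One neighbour of EPHB6 was expressed. TRPV6, a calcium channel gene on the minus strand whose end lies 108 bases from the end of EPHB6, was the 1 tested gene within 100000 bases and was looked at after the EPHB6 values were known. TRPV6 stood at 1.80, 0.579 and 0.999 CPM in Vector, at 0.678, 1.15 and 1.73 in WT and at 0.367, 0.784 and 0.567 in NLS Mut. The ranges of TRPV6 overlapped between all groups. Its log2 fold change was 1.03 for WT minus NLS Mut (adjusted p = 0.51, edgeR) and -0.94 for NLS Mut minus Vector (adjusted p = 0.54). In WT minus Vector TRPV6 was at 0.09 (adjusted p = 0.97, edgeR), where EPHB6 was at 0.61. TRPV6 had 7 to 39 reads a library.

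EPHA2 and EPHB4 carried most of the receptor transcript. Per kb of exons EPHA2, a receptor often raised in carcinomas, had a mean over the 9 libraries of 46.1 CPM per kb, and EPHB4, the receptor of ephrin-B2 in vessel development, had 42.3. The ranges of both overlapped, at 41.2 to 50.9 and 40.7 to 44.1 CPM per kb, so their order is not resolved. EPHA2 was 44.6 ± 0.845% of the receptor sum in Vector, 42.9 ± 1.63% in WT and 44.4 ± 1.25% in NLS Mut, and EPHB4 was 39.5 ± 0.108%, 41.4 ± 0.910% and 40.2 ± 0.929% (SD, n = 3). EPHB2 followed at 6.05 CPM per kb, EPHA1 at 4.24 and EPHB3 at 3.76. EPHA4 (0.559) and EPHB6 (0.510) were the lowest of the 7 receptors among the 10, with ranges that overlapped each other. The exonic length joins all annotated exons of a gene. It was 12516 bases for EPHB2, against 4159 (EPHA2) to 7554 (EPHA4) for the other receptors among the 10. A long joined length lowers the level per kb, so that of EPHB2 depends on it.

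**Figure D3:**
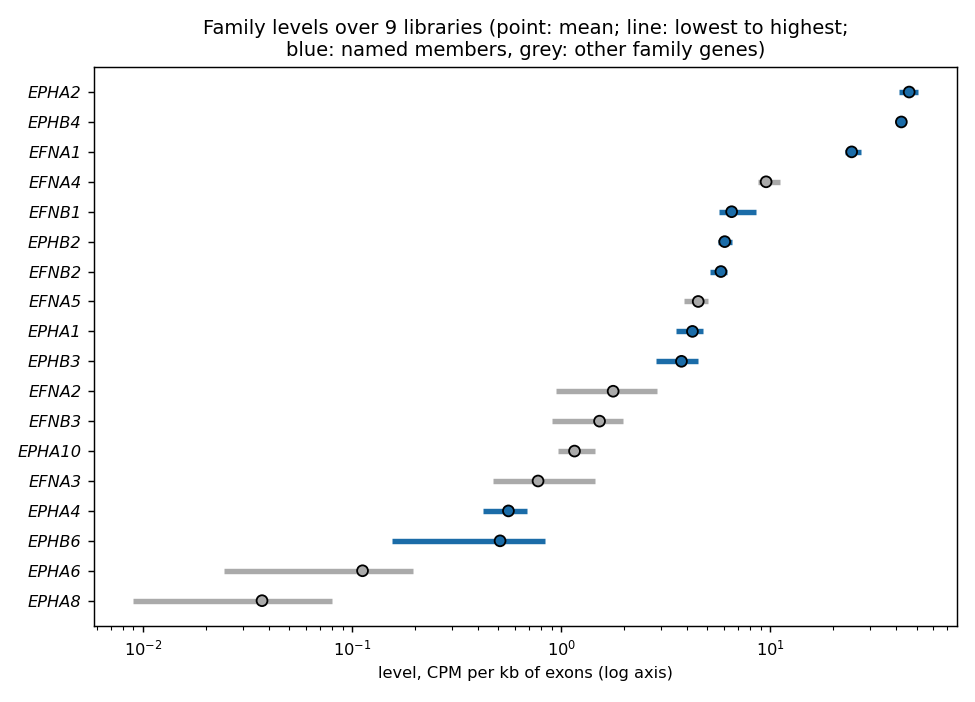
Level of each Eph and ephrin gene with reads in all 9 libraries, in CPM per kb of exons on a log axis, with a point for the mean and a line from the lowest to the highest library, blue for the 10 members and grey for other family genes. EPHA2 (46.1) and EPHB4 (42.3) lead, EFNA1 (24.5) is the highest ligand, and EPHB6 has a wide line from 0.155 to 0.839.

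Among the ligands, EFNA1, which binds EPHA2 and other EphA receptors, was highest at 24.5 CPM per kb, and its range did not overlap that of any other family gene. EFNB1 (6.53) and EFNB2 (5.80), the ligands of EphB receptors, had overlapping ranges, at 5.68 to 8.51 and 5.16 to 6.18 CPM per kb. EFNA4, which is not among the 10 members, was the second ligand at 9.54 CPM per kb, and EFNA5 had 4.52. The receptor sum was 108.3 ± 5.03 CPM per kb in Vector, 104.3 ± 3.52 in WT and 101.8 ± 1.49 in NLS Mut, and the ephrin sum was 55.4 ± 3.22, 55.5 ± 2.00 and 53.9 ± 1.08 (SD, n = 3). The 10 members made up 87.0% to 89.0% of the sum of the family in every library.

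The levels of EPHA1 and EFNB2 depend on how overlapping genes were counted. A read that falls on genes of both strands is dropped from the unstranded count but kept in the counts of each strand, so the sum of the strand counts shows how much was dropped. This sum was 381% to 492% of the unstranded count for EPHA1 and 239% to 278% for EFNB2, against 100% to 110% for the other 8 members. EPHA1, the first Eph receptor to be described, lies tail to tail with ZYX, an abundant gene of focal adhesions. The excess over the 9 libraries was 14023 reads for EPHA1 and 14024 for ZYX, so the dropped reads are shared by these genes, and EPHA1 itself kept 4187. EFNB2 had an excess of 9209 reads, the same as that of the opposite gene ENSG00000284966, which kept 195 reads against 6033 for EFNB2. Without strand, such reads cannot be told apart. With them, EFNB2 would stand at 12.7 to 13.2 CPM per kb and EPHA1 at 15.7 to 17.2 in the group means, so their places in the order are uncertain.

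In WT against NLS Mut, 1 of the 10 members passed an adjusted p of 0.05 (edgeR quasi-likelihood test), namely EPHB6, while 0.504% of all tested genes passed in either direction and 0.3% were higher. Since EPHB6 was picked with this difference known, nothing is read from the count, which was 0 without WT replicate 1, NLS Mut replicate 1 or NLS Mut replicate 2. By DESeq2, 0 members passed, and EPHB6 and EPHA4 had no adjusted p. An unadjusted p under 0.05 was found for 1 member, EPHB6 again, and for 11.6% of all tested genes. The median log2 fold change of the members was 0.05, with 6 above and 4 below 0, and that of all tested genes was -0.01. Groups did not overlap for 3 members, EPHB6 and EPHB4 (higher in WT) and EPHB2 (lower in WT), against 17.7% of all tested genes, 8.25% higher and 9.42% lower.

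EPHB4 stood at 262, 281 and 284 CPM in Vector, 274, 279 and 280.5 in WT and 262, 262 and 266 in NLS Mut. All WT libraries were above all NLS Mut libraries, and Vector spanned both. The difference was small, at 0.08 on the log2 scale with a 95% interval from -0.03 to 0.19 and an adjusted p of 0.63 (edgeR). EPHB2, a receptor that keeps cell compartments apart in the gut, had 76.5, 82.1 and 76.8 CPM in Vector, 73.5, 70.7 and 70.5 in WT and 74.7, 75.9 and 80.6 in NLS Mut. WT libraries were below all others for EPHB2, by -0.11 against NLS Mut (95% interval -0.25 to 0.04) and -0.13 against Vector (-0.28 to 0.01), and edgeR called neither (adjusted p = 0.61 and 0.47). No end of these 3 intervals lies beyond -0.28 or 0.19.

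EPHB3, which acts beside EPHB2 in epithelia, had 18.7, 18.5 and 17.0 CPM in Vector, 15.9, 17.3 and 20.3 in WT and 14.9, 12.8 and 17.7 in NLS Mut. Its WT and NLS Mut ranges overlapped, and the log2 difference of 0.24 had a 95% interval from -0.03 to 0.51. EPHA2 had 187, 204 and 212 CPM in Vector, 171, 191.5 and 196 in WT and 194, 191 and 179 in NLS Mut. The groups overlapped for EPHA2, and WT minus NLS Mut was -0.01 (95% interval -0.15 to 0.12).

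EPHA4, a receptor that binds ligands of both classes, had 4.20, 5.17 and 4.22 CPM in Vector, 4.11, 4.31 and 4.48 in WT and 3.72, 4.59 and 3.18 in NLS Mut. Its reads were few, 56 to 143 a library, and the interval of WT minus NLS Mut was accordingly wide, from -0.30 to 0.62 around 0.16. EPHA1 had 20.3, 21.7 and 22.0 CPM in Vector, 22.4, 17.3 and 18.9 in WT and 20.04, 21.1 and 16.7 in NLS Mut, with overlap of all groups. Its log2 difference of WT minus NLS Mut was 0.01 (95% interval -0.24 to 0.27) and became 0.13 when reads of both strands were summed.

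The ligands showed no called difference between WT and NLS Mut, and their groups overlapped. EFNA1 was at 60.4, 68.7 and 62.9 CPM in Vector, 58.5, 67.1 and 63.9 in WT and 60.6, 59.3 and 57.7 in NLS Mut, a log2 difference of WT minus NLS Mut of 0.09 (95% interval -0.07 to 0.25). EFNB1 was at 19.7, 28.2 and 21.9 CPM in Vector, 20.4, 20.9 and 19.96 in WT and 20.4, 18.8 and 24.4 in NLS Mut, a difference of -0.05 (-0.31 to 0.22). Vector replicate 2 was the highest EFNB1 library and set the wide spread of its group. EFNB2 was at 27.9, 31.0 and 28.2 CPM in Vector, 25.9, 29.4 and 30.3 in WT and 29.1, 29.1 and 31.0 in NLS Mut, a difference of -0.06 (-0.26 to 0.15).

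**Figure D4:**
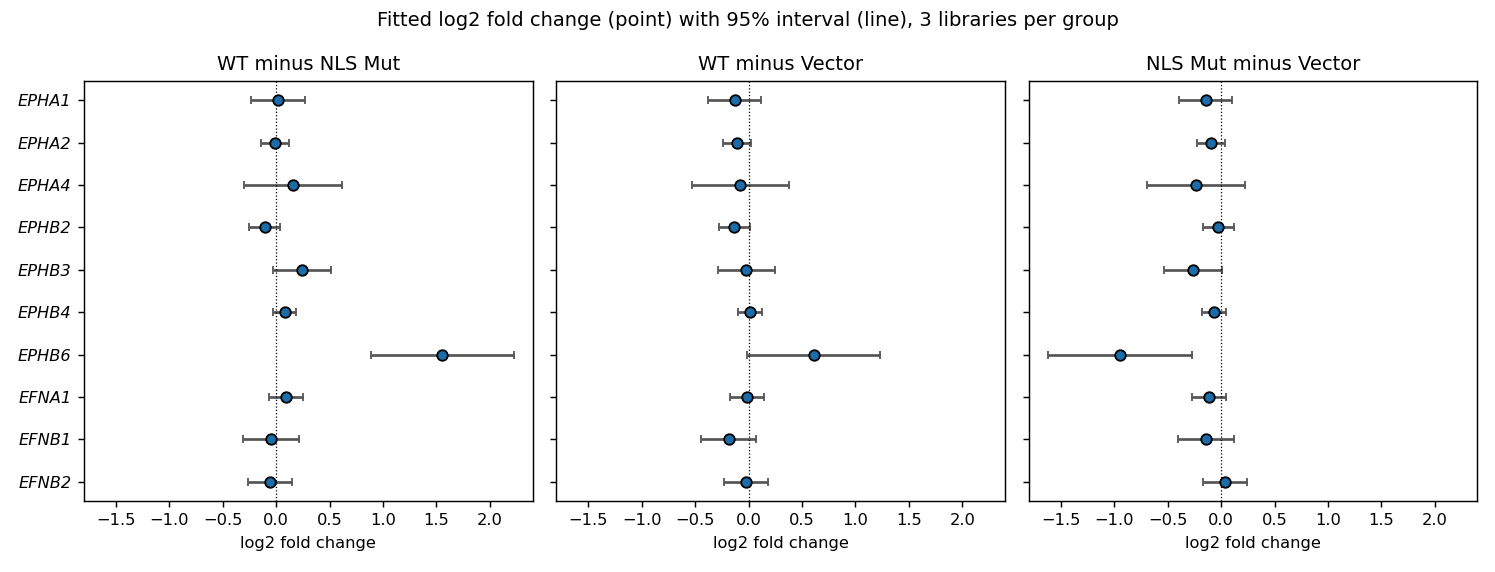
Fitted log2 fold change of each of the 10 genes (rows) in WT minus NLS Mut, WT minus Vector and NLS Mut minus Vector, with a point for the estimate and a line for its 95% interval. EPHB6 is at 1.56, 0.61 and -0.95, and the other genes lie between -0.26 and 0.24.

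In WT against Vector, 0 of the 10 members passed the adjusted threshold of edgeR, where 0.558% of all tested genes did, and 0 had an unadjusted p under 0.05, as 11.7% of all tested genes did. DESeq2 also called 0, with 1 member lacking an adjusted p. The median log2 fold change of the members was -0.05, with 2 above and 8 below 0. With each library corrected for GC content and length it was -0.014, with 4 above and 6 below. Groups did not overlap for EPHB6 (higher) and EPHB2 (lower), 2 of 10, against 13.1% of all tested genes, 6.53% higher and 6.54% lower. The members apart from EPHB6 lay between -0.19 (EFNB1) and 0.01 (EPHB4), and the sign of EPHA1 depended on the counting, at -0.13 unstranded and 0.12 with both strands summed.

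In NLS Mut against Vector, 0 of the 10 members passed by edgeR, beside 0.793% of all tested genes, and EPHB6 was the 1 member with an unadjusted p under 0.05, against 12.2% of all tested genes. DESeq2 called 0, with 2 members lacking an adjusted p. Groups did not overlap for 0 members, against 18.1% of all tested genes. The median of the members was -0.13, with 9 of 10 below 0 and EFNB2 at 0.03. After EPHB6 the lowest values were those of EPHB3, at -0.26 (95% interval -0.53 to 0.01), and EPHA4, at -0.24 (-0.69 to 0.22).

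Base composition moved with the comparisons with Vector. Of the 10 members 8 have an exonic GC content of 55% or more, with a median of 59.9%, and the slope of log2 level per 10 percentage points of GC was 0.10 and 0.11 in Vector replicates 2 and 3, against -0.08 to 0.03 in the other 7 libraries. Genes within 2 percentage points of the GC content of a member had a median log2 fold change, taken as the median over the members, of -0.09 in NLS Mut minus Vector and also in WT minus Vector, and of 0.01 in WT minus NLS Mut. With each library corrected for GC content and length, the median of the members in NLS Mut minus Vector was -0.03 instead of -0.13, with 3 above and 7 below 0. The correction left EPHB6 at 1.56 in WT minus NLS Mut and at -0.86 in NLS Mut minus Vector.

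Of the 12 family genes outside the 10 members, 7 were tested, namely EPHA6, EPHA10, EFNA2, EFNA3, EFNA4, EFNA5 and EFNB3, and edgeR called 0 in each of the 3 comparisons. DESeq2 also called 0, but 4, 3 and 5 of the 7 had no adjusted p in WT minus NLS Mut, WT minus Vector and NLS Mut minus Vector. Of all tested genes, edgeR called 0.504%, 0.558% and 0.793% in these 3 comparisons. The other 5 family genes were not tested. Of these, EPHA3 and EPHA7 had 0 reads in all libraries, EPHA5 at most 2, EPHB1 at most 5 and EPHA8 at most 11. EFNB3, the third ephrin-B, had 4.11, 5.46 and 4.96 CPM in Vector, 5.51, 6.39 and 5.93 in WT and 4.72, 2.90 and 4.20 in NLS Mut. WT libraries of EFNB3 were above all others. Of all tested genes, 8.25% had WT above NLS Mut without overlap and 6.53% had WT above Vector. The log2 fold change of EFNB3 was 0.61 for WT minus NLS Mut (95% interval 0.16 to 1.05, adjusted p = 0.24, edgeR) and 0.29 for WT minus Vector (-0.14 to 0.73, adjusted p = 0.64). EFNB3 was the 1 gene of these 7 with an unadjusted p under 0.05 in WT minus NLS Mut, against 11.6% of all tested genes. In the comparisons with Vector there were 0, against 11.7% (WT) and 12.2% (NLS Mut) of all tested genes. EPHA6 had 4 to 34 reads a library and wide intervals. Its log2 fold change was 1.00 for WT minus NLS Mut (-0.41 to 2.41) and -0.11 for WT minus Vector (-1.42 to 1.21). For NLS Mut minus Vector it was -1.11 (-2.51 to 0.29), where its groups did not overlap, as for 18.1% of all tested genes.

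Genes that act downstream of the receptors were counted in the same way. Of 52 adaptors, kinases, exchange factors and other signalling genes, 48 were tested, and the 1 called was SHC1, an adaptor of receptor tyrosine kinases, lower in NLS Mut than in Vector, where 0.793% of all tested genes were called. SHC1 fell by 0.24 on the log2 scale (SE 0.06, adjusted p = 0.036, edgeR), from 209.8 ± 6.79 CPM to 178 ± 1.67 (SD, n = 3), and its WT level was 188 ± 3.74. The members of this list had an unadjusted p under 0.05 in 4 cases in WT minus NLS Mut, 8 in WT minus Vector and 7 in NLS Mut minus Vector, against 11.6%, 11.7% and 12.2% of all tested genes. DESeq2 called 0, 1 and 2 of the 48, with no adjusted p for 1, 0 and 3. Over all genes DESeq2 called 316, 262 and 430, against 94, 104 and 148 by edgeR. All 12 proteases and secretase subunits that cleave Eph receptors or ephrins, such as ADAM10, were tested. In the 3 comparisons edgeR called 0 of them, against 0.504%, 0.558% and 0.793% of all tested genes. An unadjusted p under 0.05 was found for 1, 2 and 0 of the 12, against 11.6%, 11.7% and 12.2% of all tested genes. DESeq2 also called 0 of the 12, but 6, 5 and 6 of them had no adjusted p.

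Among 44 other receptor tyrosine kinases, 30 were tested and the 1 called by edgeR was MST1R, the receptor of macrophage-stimulating protein. Of all tested genes, edgeR called 0.504% in WT minus NLS Mut, 0.558% in WT minus Vector and 0.793% in NLS Mut minus Vector. Unadjusted p was under 0.05 for 7 (WT minus NLS Mut), 4 (WT minus Vector) and 6 (NLS Mut minus Vector) of the 30. The shares of all tested genes were 11.6%, 11.7% and 12.2%. DESeq2 called 1, 0 and 2 of the 30, with no adjusted p for 9, 7 and 12. Its calls over all genes were 316, 262 and 430, against 94, 104 and 148 by edgeR. MST1R had 127 ± 5.34 CPM in Vector, 128 ± 3.02 in WT and 103 ± 6.76 in NLS Mut (SD, n = 3). It was higher in WT than in NLS Mut by 0.31 (SE 0.07, adjusted p = 0.022) and lower in NLS Mut than in Vector, at -0.30 (SE 0.07, adjusted p = 0.023), by edgeR. The lowest group mean of MST1R and EPHB6 was in NLS Mut, as it was for EPHA1, EPHA4, EPHB3, EPHB4 and EFNA1. For EPHA2, EPHB2, EFNB1 and EFNB2 it was in WT. In WT minus Vector MST1R was at 0.02 (SE 0.06) and EPHB6 at 0.61 (SE 0.30).

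Other measures also moved between WT and NLS Mut. The epithelial markers CDH1 and KRT19 were higher in WT by 0.27 and 0.23 on the log2 scale (adjusted p = 0.036 and 0.044, edgeR), 2 of 10 markers called against 0.504% of all tested genes. In NLS Mut minus Vector all 10 markers were below 0, with a median of -0.19. CDH1 was called lower there at -0.25 (adjusted p = 0.044, edgeR), 1 of 10 against 0.793% of all tested genes. An unadjusted p under 0.05 was found for 5 markers in WT minus NLS Mut and 5 in NLS Mut minus Vector. The shares of all tested genes were 11.6% and 12.2%. DESeq2 called 3 and 2 markers in these comparisons, with no adjusted p for 2 in each. It also called more genes in general, 316 and 430 over all genes against 94 and 148 by edgeR. In WT minus Vector 6 markers were above and 4 below 0. There edgeR called 0, against 0.558% of all tested genes. An unadjusted p under 0.05 was found for 2, against 11.7% of all tested genes. DESeq2 called 0 there, with no adjusted p for 2. The summed level of the 10 epithelial markers was 5137 to 5249 CPM in WT, 4714 to 4913 in NLS Mut and 4819 to 5547 in Vector. The 9 markers of other cells summed to 17.2 to 19.1 CPM in WT, 12.5 to 15.2 in NLS Mut and 14.3 to 15.1 in Vector, of which edgeR tested 4 and called 0 in WT minus NLS Mut, with an unadjusted p under 0.05 for 1. DESeq2 called 0 there, with no adjusted p for 3 of the 4. The fibroblast marker PDGFRB, also a receptor tyrosine kinase, made up most of this sum at 6.90 to 11.7 CPM, and CD3E, CD68 and DCN were listed at 0. HSPA5 itself differed between WT and NLS Mut by 0.19 on the log2 scale (SE 0.05, adjusted p = 0.079, edgeR). The part of these differences in the EPHB6 result was not tested.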

How the data were processed

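Per the labels, total RNA of H1975 cells was sequenced in 9 libraries, 3 each of Vector, WT and NLS Mut. For each gene the authors deposited raw, unnormalized read counts in the STAR layout. The submitters' processing notes list STAR 2.7.9a, DESeq2 1.36.0 and GRCh38.p14, and the annotation release is not given in the sources used here. Unstranded counts were used (50.6% to 51.9% of stranded reads lay on the forward strand), and the 4 summary lines of each library, 27.6% to 30.7% of reads, were left out.

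Counts were fitted with edgeR 4.0.16 in R 4.3.3 (TMM, filterByExpr, quasi-likelihood test, all 9 libraries in 1 fit), with Benjamini-Hochberg adjustment over 18653 genes and a threshold of 0.05. Standard errors were derived from the log2 fold change and F. Coordinates, exonic length and GC content came from GENCODE release 29 (GRCh38), which held 58342 of 61544 genes, and promoters from RefSeq.

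The members, the gene lists and the alternatives were chosen with earlier results of these data known. All members and tested family genes are named, and of the other lists the called genes. TRPV6, ZYX and ENSG00000284966 were named after values were seen. Alternatives were DESeq2 1.42.0, other scalings and filters, strand sums, a replicate block, a GC content and length correction (loess, span 0.3), only the 2 groups compared, and leaving out each library. In 3 simulations of 18653 genes for WT minus NLS Mut, 200 genes drawn from all tested genes were changed. Of log2 changes of 0.5, 51.0% were recovered, of 1, 67.7%, and of 1.5, 76.1%, and 4.1% of calls were false. These rates cover genes of all levels and need not hold for genes with few reads, such as EPHB6 and EPHA4. The simulated counts were drawn with the spread that edgeR had fitted and were fitted again with the same model. They held no GC slope and no deviating library, so they cannot show the rate of false calls in the real libraries.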

Additional observations from a re-analysis of the deposited data

How the results depend on the processing

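The sign of 16 of the 30 member log2 fold changes (10 genes, 3 comparisons) was the same under all 18 alternatives, and the other 14, of at most 0.14 in size, changed sign in at least 1. EPHB6 kept its sign in all 3 comparisons. It passed the threshold in WT minus NLS Mut under 14 alternatives and not without WT replicate 1 (adjusted p = 0.074), NLS Mut replicate 1 (0.093) or NLS Mut replicate 2 (0.17) by edgeR, so the members called ranged from 0 to 1 when 1 library was left out. DESeq2 called 0 members there. EPHB6 had no adjusted p (NA) in DESeq2, at an unadjusted p of 5.56e-06, so it neither passed nor failed. The labels do not say whether the replicate numbers pair the samples. Deviations from the group means correlated at -0.02 to 0.06 between libraries of the same number, which cannot decide it. With a replicate block EPHB6 was at 1.60 in WT minus NLS Mut. The median of the members in NLS Mut minus Vector was -0.15 with library size alone, -0.10 with both strands summed, -0.027 with the GC content and length correction and -0.17 to -0.076 with 1 library left out. In WT minus NLS Mut the median was 0.10 with both strands summed and 0.051 to 0.087 with 1 library left out, and in WT minus Vector -0.10 to 0.016. With both strands summed, the receptor sum was 108.3 CPM per kb in WT and 103.9 in NLS Mut, and the ephrin sum in NLS Mut was 55.1.

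Calls over all tested genes moved more. Against 94 in WT minus NLS Mut, 104 in WT minus Vector and 148 in NLS Mut minus Vector, DESeq2 called 316, 262 and 430, edgeR without a filter 225, 289 and 240, and the replicate block 212, 232 and 230. The GC content and length correction gave 418 and 227 in the comparisons with NLS Mut, and using only the 2 groups compared gave 315 in WT minus NLS Mut and 26 in WT minus Vector. Leaving out 1 library gave 27 to 388, 19 to 1256 and 33 to 1002, with each highest count reached without Vector replicate 1. The share of calls that were higher fell from 38.5% to 18.4% (WT minus Vector) and from 37.2% to 22.7% (NLS Mut minus Vector) with library size alone. It was 54.2% and 57.3% there with the GC content and length correction and 70.6% instead of 59.6% in WT minus NLS Mut with both strands summed. The causes were not tested. EPHB6 and EPHA4 had the fewest reads of the members, 21 to 116 and 56 to 143 a library, and the largest standard errors, 0.33 and 0.22 in WT minus NLS Mut.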
